A study of Homo sapiens with 22 samples.

Results

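The loci of the 10 genes that encode LSD1 (KDM1A) and the subunits or recruiters of its CoREST complex were examined in region lists from 3 human prostate cancer cell lines. The members were KDM1A, RCOR1, RCOR2, RCOR3, HDAC1, HDAC2, PHF21A, HMG20B, GFI1 and GFI1B, 10 of the 20163 protein-coding genes of the annotation. For each gene, every deposited region that touched the gene body or 50 kb on either side of it was taken, and a region was counted as promoter when it came within 1 kb of a transcription start of a protein-coding transcript and as distal otherwise. The rule found 605 of the 871377 regions in 22 lists, 186 of them at promoters and 419 distal. The rule used no measured value, though the genes were chosen with earlier results of these data known. A region near a gene need not act on that gene, and the windows also held other genes (7 at HDAC1, 6 at HMG20B), so each region is described by where it lay.

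The lists came from chromatin immunoprecipitation sequencing (ChIP-seq), in which an antibody recovers the DNA that a protein or histone mark sits on, and from ATAC-seq, which reads accessible DNA. PC3, taken from a bone metastasis, lacks the androgen receptor. NCI-H660 has neuroendocrine features, and LNCaP is a luminal line that depends on the androgen receptor. In vehicle-treated PC3 the lists held ATAC-seq, the active-chromatin mark H3K27ac and the pioneer factor FOXA2, and in vehicle-treated NCI-H660 they held ATAC-seq, the promoter and enhancer mark H3K4me2 and FOXA2. FOXA2 was also mapped after 4 h with ORY-1001 at 10 µM in PC3 and NCI-H660 and with C12 at 0.5 µM in PC3. Both are LSD1 inhibitors. The AP-1 subunit JUN was mapped in PC3 and NCI-H660 cells with control siRNA (siNC) or siRNA to FOXA2 (siFOXA2), its partner FOSL1 in PC3 with the same siRNAs, and JUN in LNCaP with siNC or siRNA to FOXA1 (siFOXA1). The remaining LNCaP lists came from cells with 3xFLAG-tagged FOXA2 (FOXA2OE; FOXA2 and JUN lists) or its K265R mutant (FOXA2K265R; JUN list). Per the study's methods both were stable lines made with lentivirus and puromycin, so the FOXA2 in them was ectopic. The H3K27ac sample is labelled vehicle although its deposited list is named for siNC, and the label was followed. The sample titled for the mutant carries the FOXA2OE cell line label, and the title was followed. A further pair of vehicle PC3 FOXA2 lists carries no antibody label, and these are called the unlabelled lists. The names of their regions start with different codes, so they may not be replicates of each other.

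Every group had 1 list, apart from the unlabelled pair, so no comparison has a replicate check and none was tested. The precision is given by Wilson 95% intervals, which cover counting error only, beside the same measure over the whole list or all genes. No read depth was given. The lists ran from 1538 regions (PC3 FOSL1, siFOXA2) to 210960 (PC3 ATAC-seq), and 20 of the 22 gave a score per region, lowest at 13 in most lists, that rises with the strength of the call. The FOXA2 list of FOXA2OE cells and the JUN list of LNCaP siNC cells gave none. Scores depend on depth, so a region is ranked within its own list by the percent of that list that scored higher, a low percent being a strong call. Region names place each inhibitor or siRNA list in the same processing folder as its control. The FOXA2OE, FOXA2K265R and LNCaP siNC JUN lists lay in different folders, as did the PC3 and NCI-H660 JUN lists, the ATAC-seq lists of those lines, and the unlabelled against the other PC3 FOXA2 lists, and across such lists a difference of folder cannot be told apart from one of condition. The line markers went only partly with their labels: promoters of all 6 neuroendocrine genes checked, among them CHGA and INSM1, were accessible in NCI-H660, but 5 of the 6 were also accessible in PC3 (CHGA was not), and 2 of the 6 carried H3K27ac there. All 6 PC3 genes (such as VIM and CD44) were accessible in both lines. LNCaP was covered by JUN and FOXA2 lists alone here, and of its 5 markers none had a JUN region at its promoter in the siNC list.

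LSD1 removes methyl groups from lysine 4 of histone H3 when it carries 1 or 2 of them, using FAD, and thereby takes away a mark of active promoters and enhancers. It works in a complex with a CoREST scaffold (RCOR1, RCOR2 or RCOR3), which couples it to nucleosomes and to the deacetylases HDAC1 and HDAC2, which remove histone acetylation. PHF21A (BHC80) reads unmethylated H3K4 through a PHD finger, HMG20B (BRAF35) is an HMG-box protein of the same complex, and GFI1 and GFI1B are zinc finger repressors whose SNAG domain resembles the histone tail and docks in LSD1. LSD1 also demethylates some proteins other than histones.

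Like those of nearly all genes, the loci were open and marked, and the labelled FOXA2 lists held regions near a minority of the members. All 10 members had ATAC-seq regions within 50 kb in PC3 (171 regions in all; 99.1% of all protein-coding genes had at least 1) and in NCI-H660 (85 regions; 95.9% of genes). H3K4me2 was found at all 10 in NCI-H660 (89 regions; 94.7% of genes) and H3K27ac at 9 in PC3 (62 regions; 92.5% of genes), GFI1 being the exception. FOXA2 regions lay near 4 of 10 members in vehicle PC3 (7 regions; 54.1% of genes), near 1 under ORY-1001 (1 region; 38.9% of genes) and near 1 under C12 (1 region; 28.7% of genes). In the unlabelled lists they lay near 9 members (43 regions; 86.5% of genes) and 8 members (35 regions; 82.9% of genes). In NCI-H660 they lay near 3 members under vehicle (3 regions; 37.6% of genes) and 2 under ORY-1001 (2 regions; 35.5% of genes), and in FOXA2OE LNCaP near none (6.03% of genes). With 10 members, the gaps from the share of all genes were not tested.

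**Figure D1:**
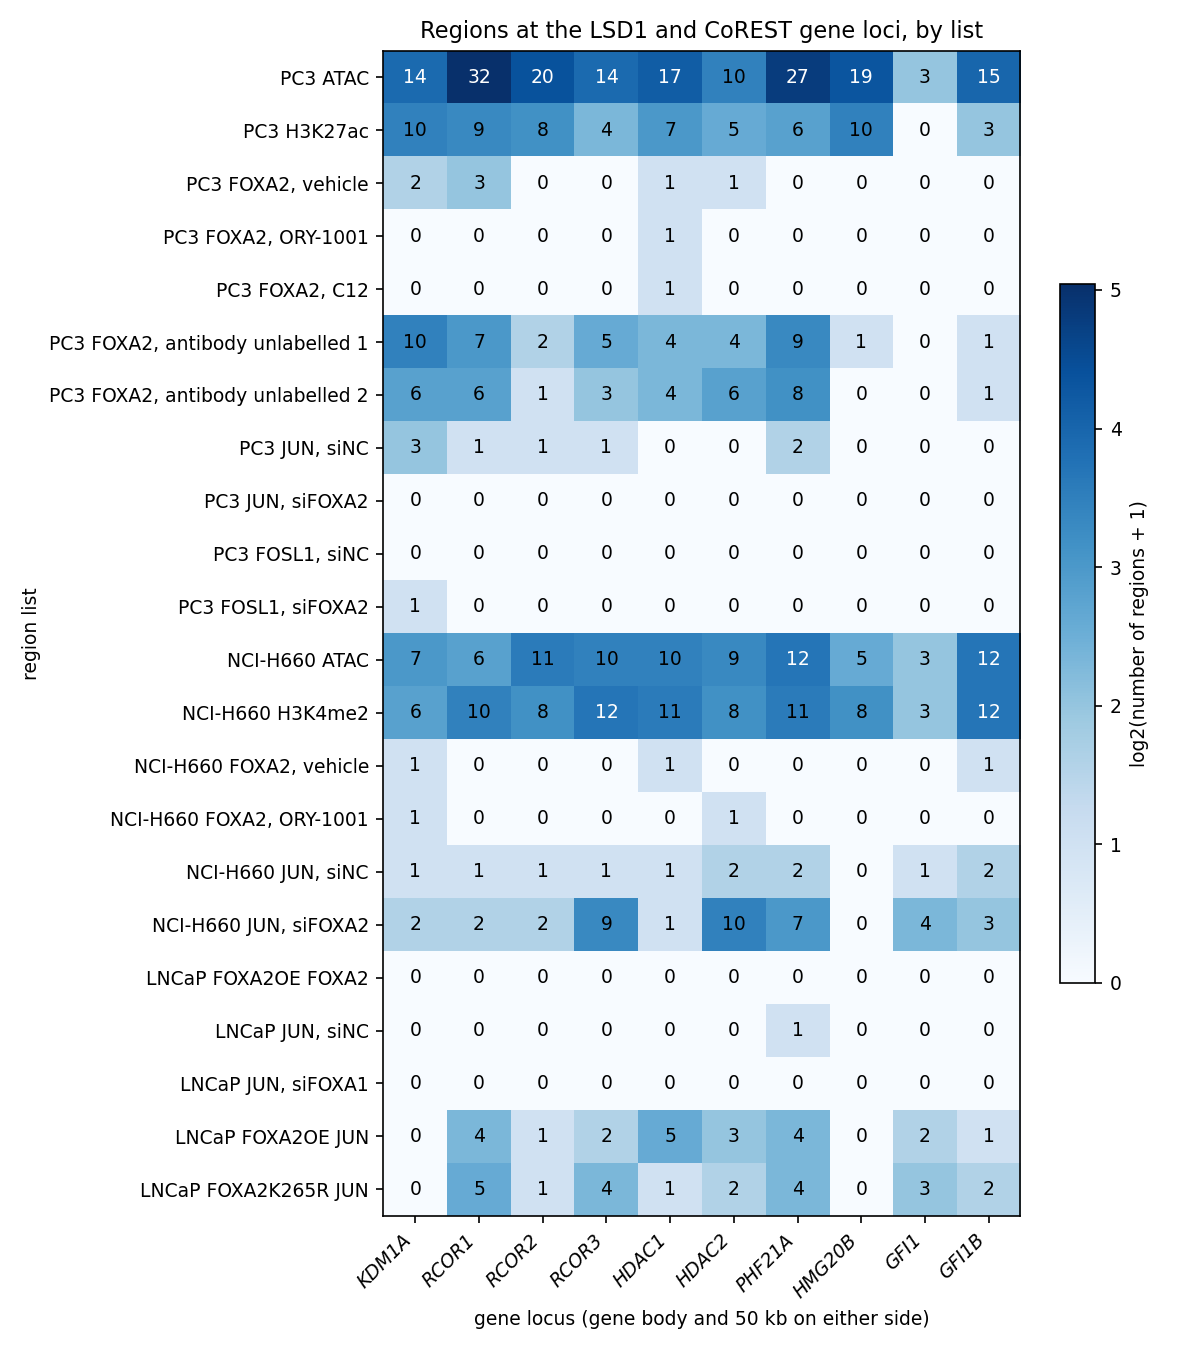
Numbers of regions at the 10 member loci (columns) in each of the 22 lists (rows), with the number in each cell and the shade its log2 value after adding 1. The accessibility and histone lists fill most cells, GFI1 has no PC3 H3K27ac region, and the FOXA2 lists under inhibitors hold 1 region in PC3 and 2 in NCI-H660.

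Per length of genome, the windows of the 10 genes, which together cover 1.65 Mb, held 104 PC3 ATAC-seq regions per Mb against 84.3 per Mb over the windows of all genes, and 54.1 H3K4me2 regions per Mb in NCI-H660 against 30.9. H3K27ac was near parity, at 37.7 against 37.1. The labelled FOXA2 lists went the other way, with 4.25 regions per Mb in vehicle PC3 against 8.50 and 1.82 in NCI-H660 against 4.26. The unlabelled lists came closer, at 26.1 against 28.8 and 21.3 against 23.2. JUN varied by list, with 4.86 against 8.98 in PC3 siNC, 7.29 against 7.41 in NCI-H660 siNC, 24.3 against 23 in NCI-H660 siFOXA2, 13.4 against 9.92 in FOXA2OE and 13.4 against 18.6 in FOXA2K265R. These are descriptions of single lists, not tests.

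Promoters of the complex were accessible throughout. A region lay at the promoter of all 10 members by ATAC-seq in PC3 (77.5% of all protein-coding genes) and in NCI-H660 (74.6%), of 9 by H3K27ac in PC3 (68.0%) and of all 10 by H3K4me2 in NCI-H660 (74.5%). The KDM1A promoter, that of the demethylase itself, scored 3633 in PC3, exceeded by 1.59% of ATAC-seq regions, and 437 in NCI-H660, exceeded by 36.0%. The ATAC-seq lists differ in length (210960 and 99959 regions) and in processing folder. Percents here and in the promoter paragraphs below are therefore not compared between lines. Its H3K27ac score in PC3 was 1248 (8.0% higher) and its H3K4me2 score in NCI-H660 150 (40.3% higher).

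Among the scaffolds, the RCOR1 promoter carried the strongest H3K27ac call of the 10, 2715 with 1.44% of the list higher, and ATAC-seq scores of 1262 in PC3 (9.60% higher) and 615 in NCI-H660 (26.0% higher). RCOR2, a scaffold known for its neural expression, had the weakest NCI-H660 promoter accessibility of the 10 by rank (155, 65.2% higher) but the second-highest H3K4me2 rank (614, 3.81% higher). The accessibility ranking counts the start that GFI1B shares with TSC1 as a GFI1B promoter. At the main GFI1B start the NCI-H660 ATAC-seq region scored 63 (86.6% higher), below RCOR2. In PC3 the RCOR2 promoter scored 612 (19.5% higher) for ATAC-seq and 400 (25.3% higher) for H3K27ac. RCOR3 was high in both accessibility lists, 2299 in PC3 (4.06% higher) and 1011 in NCI-H660 (13.2% higher), with H3K27ac at 2161 (2.66% higher) and H3K4me2 at 181 (33.6% higher).

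Both deacetylase promoters were open in both lines. HDAC1 scored 2450 in PC3 (3.62% higher) and 913 in NCI-H660 (15.6% higher), and HDAC2 scored 958 (13.1% higher) and 770 (19.8% higher). Their H3K27ac scores in PC3 were 1564 (5.41% higher) and 1805 (4.00% higher), and their H3K4me2 scores in NCI-H660 nearly coincided at 330 and 321 (15% and 15.7% higher). HMG20B had the top promoter accessibility rank of the 10 in PC3 (3693, 1.52% higher) and the top H3K4me2 rank in NCI-H660 (751, 2.04% higher), while PHF21A stood at 2222 (4.29% higher) and 191 (31.8% higher) in the same lists.

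The recruiters split. The GFI1 promoter was the weakest of the 10 in PC3, with an ATAC-seq score of 39 that 76.3% of the list exceeded and no H3K27ac region within 50 kb, but in NCI-H660 it scored 587 (27.2% higher), the same value as HMG20B, with H3K4me2 at 210 (28.6% higher). GFI1 thus ranked lowest of the 10 in PC3 but not in NCI-H660. GFI1B scored 883 in PC3 (14.2% higher) and 242 in NCI-H660 (53.4% higher), but its annotated gene begins at an alternative start next to the TSC1 promoter, upstream of the main GFI1B start, and that shared start counts as its promoter here. With the main transcript of each gene alone, promoters with a region fell to 9 for PC3 ATAC-seq, 8 for H3K27ac and 9 for H3K4me2.

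**Figure D2:**
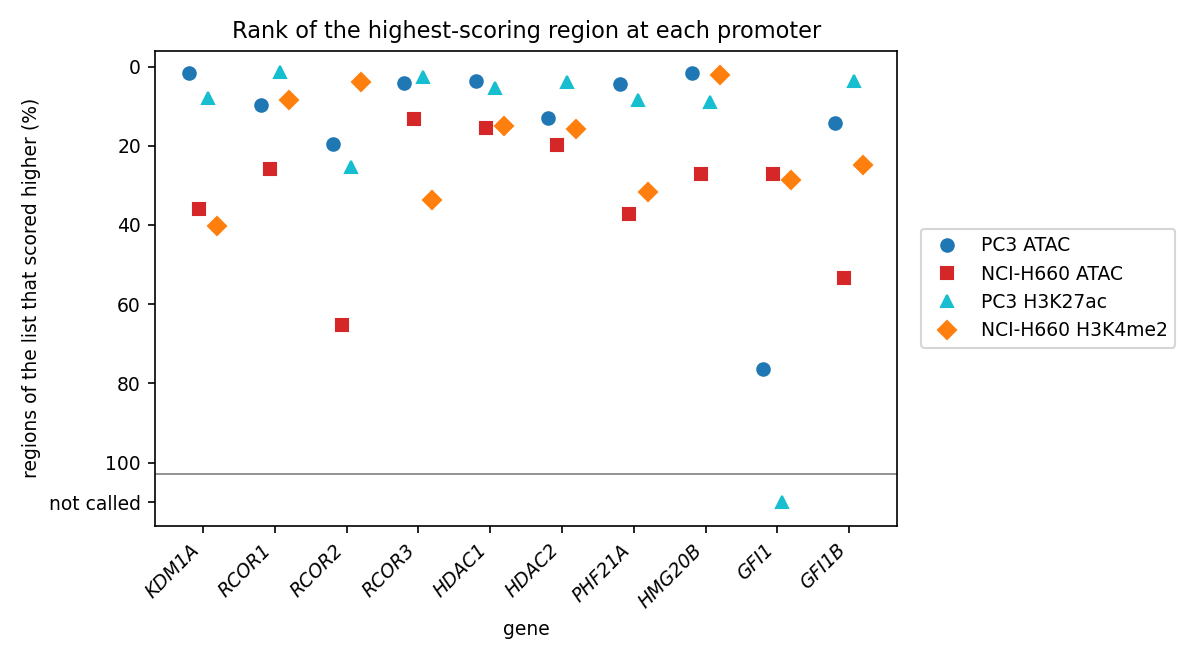
Rank of the strongest promoter region of each member in the PC3 and NCI-H660 ATAC-seq, PC3 H3K27ac and NCI-H660 H3K4me2 lists, as the percent of the list scoring higher, so that strong calls have low values. GFI1 stands at 76.3% in PC3 ATAC-seq and has no H3K27ac call, while KDM1A and HMG20B stand at 1.59% and 1.52% in PC3. The lists differ in length, so percents are not compared between lines.

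Away from promoters the lines differed in which DNA was open. Of the 46 PC3 ATAC-seq promoter regions at the loci, 34 (73.9%; interval 59.7 to 84.4) overlapped an NCI-H660 region, against 73.5% over the whole list, but of the 125 distal regions only 21 did (16.8%; 11.3 to 24.3), against 15.6%. Seen from NCI-H660, 28 of 32 promoter regions (87.5%; 71.9 to 95) and 20 of 53 distal regions (37.7%; 25.9 to 51.2) were shared, against 83.4% and 32.9% list-wide. The shares at the complex genes therefore lay within their counting error of the lists as wholes.

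List-wide, 15.6% of PC3 and 32.9% of NCI-H660 distal regions were shared, and the PC3 list was the longer (210960 regions against 99959). KDM1A had 12 distal accessible regions in PC3 and 4 in NCI-H660, and none of them overlapped. RCOR1 had 29 in PC3, where 5.94% of all genes had more ATAC-seq regions in total, and 4 in NCI-H660, with 1 shared. HMG20B had 8 in PC3 and 0 in NCI-H660. RCOR2 had 16 in PC3, of which 5 were shared, and 7 in NCI-H660, of which 5 were shared.

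The strongest distal region in PC3 lay in an intron of MARK2 within the RCOR2 window (chr11:63639352-63639864, score 3994, 1.25% higher), and the overlapping NCI-H660 region scored 1394. In NCI-H660 the strongest lay 24.5 kb upstream of the main HDAC2 start, inside an intron of longer HDAC2 transcripts (chr6:114316170-114317409, score 2596, 1.01% higher), with 1704 in PC3. At HDAC1 the strongest PC3 distal region was in an intron (chr1:32787362-32787922, score 2478, 3.53% higher), and at RCOR3 the strongest in NCI-H660 was in a TRAF5 intron (chr1:211520760-211521507, score 2399, 1.34% higher). In the factor lists, JUN was called at the first and second of them, and FOXA2 at the third and, in the first unlabelled list (score 38), at the first.

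**Figure D3:**
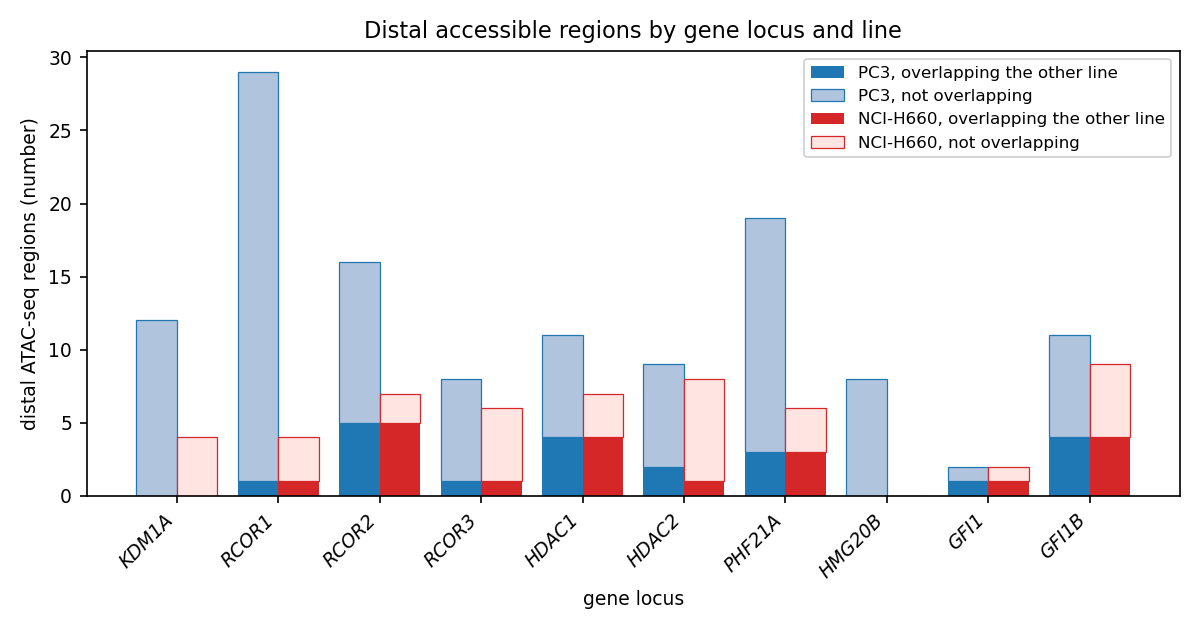
Distal ATAC-seq regions at each member locus in PC3 and NCI-H660, split into those shared with the other line and those not. KDM1A shares 0 of 12 in PC3 and 0 of 4 in NCI-H660, RCOR1 has 29 and 4 with 1 shared, and RCOR2 shares 5 of 7 in NCI-H660.

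FOXA2 in vehicle PC3 was called at 7 places in the windows of 4 members, all of them distal: 2 at KDM1A, 3 at RCOR1, 1 at HDAC1 and 1 at HDAC2. RCOR2, RCOR3, PHF21A, HMG20B, GFI1 and GFI1B had none. No member promoter had a region in this list (4.96% of all genes had a FOXA2 promoter region). Under ORY-1001 and under C12 the HDAC1 region alone was called again. The 7 regions all held a match to the forkhead motif TNTTTNN, in which positions 2 and 6 were A or G and position 7 was C or T, within 100 bp of the centre on either strand, as did 77.2% of the whole list. The AP-1 motif searched was TGACTCA or TGAGTCA, and 1 of the 7 held it, against 26.3% of the list. A match is a description of letters in the reference, not a measured site.

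The DNA of the region that stayed and of the strongest region that was lost is shown on the + strand of hg19, to set beside their scores, with forkhead matches in capitals. HDAC1 carries 4 matches in 189 bases, and the RCOR1 intron carries 1.
HDAC1 intron, called under vehicle, ORY-1001 and C12, chr1:32787374-32787562: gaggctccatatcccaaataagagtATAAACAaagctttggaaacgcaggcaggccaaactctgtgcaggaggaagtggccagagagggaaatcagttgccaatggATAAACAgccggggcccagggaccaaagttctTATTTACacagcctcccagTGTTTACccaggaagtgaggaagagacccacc
RCOR1 intron, called under vehicle only, chr14:103165911-103165967: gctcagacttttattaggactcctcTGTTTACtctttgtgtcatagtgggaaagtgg

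The HDAC1 region (chr1:32787329-32787793, in an intron 29.9 kb from the start) scored 1243 under vehicle, with 1.57% of the list higher, 1388 under ORY-1001 (0.983% higher) and 919 under C12 (1.89% higher). The unlabelled lists gave it 2747 and 2055. It was among the strongest calls in all 5 PC3 FOXA2 lists. It overlapped PC3 ATAC-seq (2478), H3K27ac (770) and a weaker NCI-H660 ATAC-seq region (230), but no FOXA2 region of NCI-H660 and no JUN region.

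The other 6 regions were weak to middling under vehicle. At KDM1A they scored 90 in an intron (chr1:23400624-23400856, 72.2% higher) and 47 in an intron of the neighbour LUZP1 (chr1:23429986-23430235, 92.3% higher). At RCOR1 they scored 42 (chr14:103057489-103057718, 93.6% higher), 71 (chr14:103134642-103134974, 81.5% higher) and 199 (chr14:103165828-103166088, 38.5% higher), the first intergenic and 1.38 kb upstream and the others in introns. The HDAC2 region, 29.1 kb upstream of its main start, scored 115 (chr6:114321318-114321586, 61.8% higher). None of the 6 was called under either inhibitor.

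Kept regions therefore numbered 1 of 7 (14.3%; 2.57 to 51.3) under ORY-1001 and 1 of 7 under C12, where the whole vehicle list lost 63.2% under ORY-1001 and 70.4% under C12. The inhibitors share this vehicle list and were used at different doses, so their values are set side by side without a comparison. Score and loss went together over the list: of the 13312 vehicle regions scoring in the range of the 6 lost ones (42 to 199), 78.6% were lost under ORY-1001 and 87.6% under C12, while of the 667 scoring 1000 or more, 91.2% and 96.1% were kept. The members' outcome followed the score of their regions as it did across the list, and the part that list length played was not tested.

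The unlabelled lists, both longer, held all 7 vehicle regions, at scores of 388 and 476 and of 177 and 143 for the KDM1A pair, 160 and 44, 355 and 129, and 748 and 517 for the RCOR1 regions in the order above, and 681 and 366 for HDAC2. List-wide they held 92.5% and 90.8% of the vehicle regions. Of their own regions at the loci, 32 of 43 (74.4%) in the first were in the second and 32 of 35 (91.4%) the reverse, against 73.4% and 91.3% of the whole lists. The HDAC1 place alone among them was called under ORY-1001 or C12, 1 of 43 (2.33%; 0.412 to 12.1) and 1 of 35 (2.86%; 0.506 to 14.5), against 11.8% and 14.5% list-wide for ORY-1001 and 8.67% and 10.7% for C12.

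Counting overlapping calls as 1 place, FOXA2 was found at 48 places over all 8 FOXA2 lists, 46 of them in PC3, of which 39 were in the unlabelled lists only and 27 were accessible in PC3. Counts of places, here and for JUN below, are given for the member loci only, with no list-wide share beside them. KDM1A had 10 places, PHF21A 9, RCOR1 8, HDAC2 7, RCOR3 5, HDAC1 4, RCOR2 2, GFI1B 2 and HMG20B 1. GFI1 had 0 in any list. The 9 PHF21A places were all unlabelled-only, the strongest in an intron (chr11:46069174-46069625, scores 563 and 206). A region 1.64 kb upstream of HDAC1 (chr1:32755792-32756297, scores 516 and 415) was likewise found in the unlabelled lists alone.

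With promoters of 1 kb, FOXA2 at member promoters was seen in the unlabelled lists alone. With 2.5 kb, for which no share of all genes is given, 1 member had it in vehicle PC3 and 7 and 4 members in the unlabelled lists. A wider promoter takes in more regions at any gene, so these counts are not comparable with the 1 kb shares below. Within 1 kb, the first unlabelled list had a promoter region at 3 members (21.1% of all genes): RCOR3 (chr1:211431736-211431983, score 46, 89.7% higher), PHF21A (chr11:46141542-46141782, score 19, 99.9% higher, and chr11:46143795-46144136, score 65, 76.7% higher) and the start that GFI1B shares with TSC1 (chr9:135819792-135820609, score 141, 47.4% higher). The second had 2 (17.1%), at PHF21A (chr11:46143768-46144122, score 117) and at the GFI1B and TSC1 start (chr9:135820129-135820507, score 123). These regions within 1 kb ranked in the weaker part of their lists or near its middle.

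**Figure D4:**
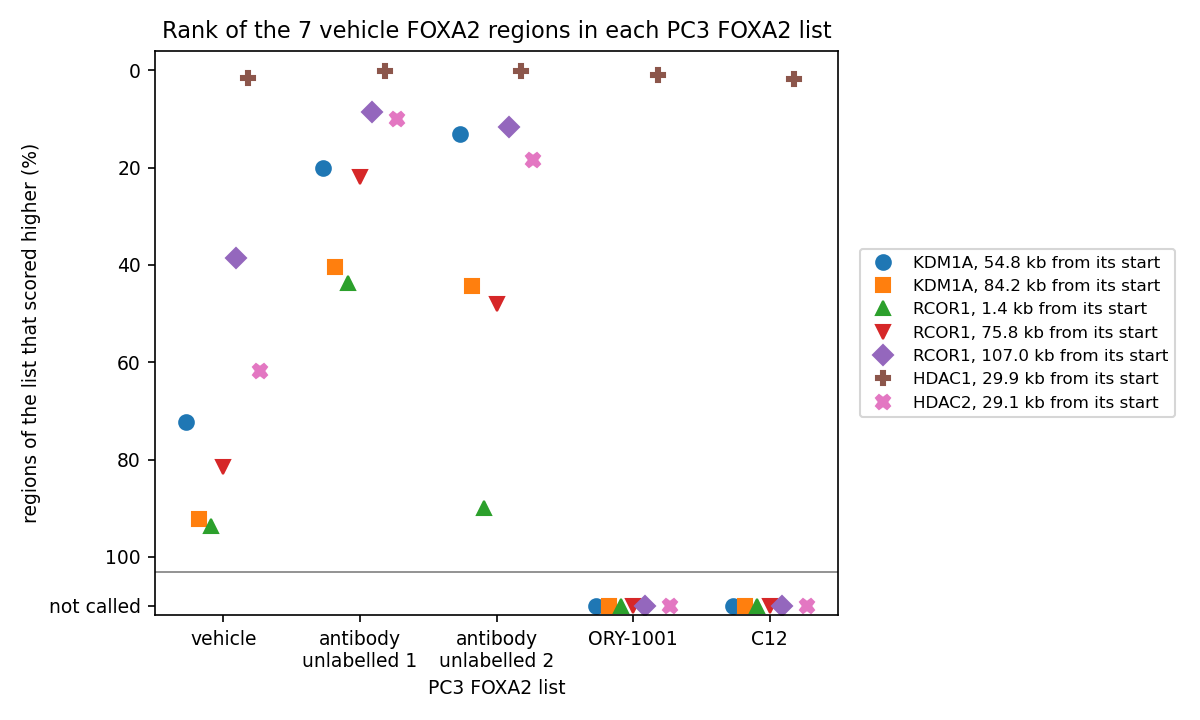
Rank of each of the 7 vehicle PC3 FOXA2 regions at the loci in the vehicle, ORY-1001, C12 and unlabelled lists, as the percent of that list scoring higher. HDAC1 stays near the top of all 5 lists, and the other 6 are absent under both inhibitors.

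NCI-H660 had 3 FOXA2 regions under vehicle and 2 under ORY-1001, and again none at a member promoter (3.25% of all genes). Forkhead matches are in capitals in a stretch of the region kept and of the strongest one lost. Each vehicle region held 3 matches in full, so the printed stretches do not compare their numbers. In the KDM1A region the match printed lies outside the ORY-1001 call, which ended at position 23366967. The 2 KDM1A matches not printed, starting at 23366738 and 23366742, lie inside both calls.
KDM1A intron, called under vehicle and ORY-1001, chr1:23366951-23367007: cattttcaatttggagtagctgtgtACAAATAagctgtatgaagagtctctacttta
HDAC1 intron, called under vehicle only, chr1:32775729-32775825: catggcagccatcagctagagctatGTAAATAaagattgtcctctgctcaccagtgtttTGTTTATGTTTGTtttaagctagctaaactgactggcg

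The KDM1A region (chr1:23366722-23367048) scored 44 under vehicle, with 89.2% of the list higher, and 46 under ORY-1001. The HDAC1 region (chr1:32775639-32775866) scored 137 (49.0% higher) and was not called under ORY-1001. Neither did the third return, in a TSC1 untranslated region near GFI1B (chr9:135770680-135771007, score 20, 98.7% higher). An HDAC2-locus region was new under ORY-1001 (chr6:114364996-114365250, score 56). Here a weak call stayed and a stronger one went, so the order was not that of the scores.

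In NCI-H660 1 of 3 regions (33.3%; 6.15 to 79.2) was kept, where the whole list lost 31.6%, and 51.9% in the score range of the lost pair. None of the 7 PC3 regions was called in NCI-H660 (0 to 35.4%), where 88.9% of the PC3 list was not. The 2 places called in both lines, the KDM1A and HDAC1 introns just described, were unlabelled-list calls in PC3 (score 120 at KDM1A, 72 and 48 at HDAC1). The vehicle calls in HDAC1 thus lay at different places in the 2 lines.

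JUN in PC3 was called with siNC at 8 places at 5 members (62.8% of all genes had at least 1 region) and with siFOXA2 at 0 (16.6% of genes). KDM1A had 3, PHF21A 2, and RCOR1, RCOR2 and RCOR3 1 each. JUN is the DNA-binding partner common to most AP-1 dimers. The 4 regions with an AP-1 match, in capitals, are shown because only 3 of the 8 held it within 100 bp of the centre, against 49.4% of the list. At RCOR2 the match lies farther out.
KDM1A locus, TEX46 exon, chr1:23337419-23337465: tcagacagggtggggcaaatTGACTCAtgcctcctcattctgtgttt
RCOR1, upstream, chr14:103057280-103057326: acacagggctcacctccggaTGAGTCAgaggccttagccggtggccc
RCOR2 locus, MARK2 intron, chr11:63639481-63639527: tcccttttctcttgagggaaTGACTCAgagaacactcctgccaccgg
PHF21A locus, CRY2 intron, chr11:45901890-45901936: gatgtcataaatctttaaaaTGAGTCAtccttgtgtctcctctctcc

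At KDM1A the siNC scores were 189 (chr1:23337272-23337591, 38.6% higher), 202 in a KDM1A intron (chr1:23400557-23400860, 35.8% higher) and 145 in LUZP1 (chr1:23429928-23430211, 51.2% higher). RCOR1 scored 177, 1.71 kb upstream of its start (chr14:103057142-103057417, 41.6% higher). RCOR2 scored 61 (chr11:63639464-63639758, 85.5% higher), and the RCOR3 promoter 60 (chr1:211432412-211432690, 85.9% higher). In the PHF21A window the scores were 126 (chr11:45901708-45902058, 57.8% higher) and 202 in a MAPK8IP1 intron (chr11:45921224-45921488, 35.8% higher). None was among the strongest calls, and RCOR3 was the 1 member with JUN at its promoter (10.7% of all genes).

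All 8 were lost with siFOXA2, a kept share of 0 (0 to 32.4%), where the whole list lost 86.6%, and 95.3% in the same score range. All 8 were accessible in vehicle PC3 (96.0% of the list) and 7 carried H3K27ac (77.3%). The whole list fell from 23890 to 4081 regions, and the part of that shortening in the loss at the members was not tested. The deacetylases, HMG20B, GFI1 and GFI1B had no JUN region in PC3 at all.

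FOXA2 and JUN met at 2 of these places, both in the KDM1A window (2 of 8 JUN regions, 25%, against 44.5% of the JUN list). The FOXA2 region in the LUZP1 intron held forkhead matches and no AP-1 match, with matches shown in capitals. The second match, starting at 23430222, lies 115 bp from the FOXA2 centre and outside the JUN call, which ended at 23430211. By contrast the RCOR1 FOXA2 region lay beside, not over, its JUN region, and the HDAC2 FOXA2 region held an AP-1 match as well as forkhead matches but no JUN call.
LUZP1 intron, FOXA2 and JUN, chr1:23430140-23430248: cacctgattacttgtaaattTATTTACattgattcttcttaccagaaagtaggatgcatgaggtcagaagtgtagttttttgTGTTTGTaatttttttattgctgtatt
RCOR1 upstream, FOXA2, chr14:103057594-103057689: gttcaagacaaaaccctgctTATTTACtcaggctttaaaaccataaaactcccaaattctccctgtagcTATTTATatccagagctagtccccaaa
HDAC2 locus, FOXA2 with an AP-1 match, chr6:114321425-114321508: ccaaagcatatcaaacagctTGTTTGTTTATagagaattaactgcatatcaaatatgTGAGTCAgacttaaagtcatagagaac

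Over the whole lists, 49.1% of JUN regions that overlapped FOXA2 held an AP-1 match anywhere, against 63.4% of those that did not. Of FOXA2 regions with an AP-1 match, 62.8% overlapped JUN. The HDAC2 region is an exception to the commoner case. In the wider first unlabelled list, 5 of the 8 JUN regions overlapped FOXA2 (62.5%; list 66.9%).

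In NCI-H660 the number of called regions moved the other way, which does not show that JUN binding rose. From its signal heatmaps the paper reports a strong decrease of JUN binding with FOXA2 silencing in both lines. JUN was called with siNC at 12 places at 9 members (66.2% of genes) and with siFOXA2 at 40 at the same 9 (83.5%), HMG20B having none in either. The whole list also grew, from 18401 to 59452 regions. Of the 12, 7 were kept (58.3%; 32.0 to 80.7) and 5 lost, where the list lost 52.0%. New calls numbered 33 of the 40 siFOXA2 regions, where 85.2% of that list was new. The part of that lengthening in the new calls was not tested.

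The strongest kept region lay in a MAPK8IP1 intron in the PHF21A window (chr11:45921141-45921624), at 2207 with siNC, exceeded by 0.299% of the list, and 1622 with siFOXA2, exceeded by 0.0959%. The HDAC2 intron region (chr6:114316799-114317249) went from 1352 (1.08% higher) to 890 (0.346% higher), and a region at the LACTBL1 promoter in the KDM1A window (chr1:23298069-23298527) from 355 (11.4% higher) to 62 (19.3% higher). The first and second thus fell in score but not in percent rank. In a longer list (59452 regions against 18401) the same position gives a lower percent, so no change of position is read from these percents. Lost were an intergenic RCOR3 region (chr1:211400292-211400819, score 297, 14.4% higher), an RCOR1 intron region (chr14:103154671-103155320, score 102, 41.0% higher) and a GFI1 exon region (chr1:92943913-92944372, score 35). The HDAC2 place was also open (1704) and acetylated (371) in PC3 but had no JUN call there.

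New and siNC regions differed in how many lay in accessible DNA. All 12 siNC regions were accessible in vehicle NCI-H660 (86.0% of the list), but 9 of the 33 new ones were (27.3%, against 21.1% of new regions list-wide). Their median score was 34, from 17 to 127, against 65 for the kept regions in the same list and 35 for new regions list-wide. Promoters held 9 of the 33 (27.3%, against 10.0% of new regions list-wide) and 2 of the 7 kept (28.6%). The list-wide share also counts DNA far from genes, which the member windows leave out, so these promoter shares are not like for like. Members with JUN at their promoter went from 1 (22.7% of all genes), the GFI1B and TSC1 start, to 6 (38.5%): KDM1A, RCOR3, HDAC2, PHF21A, GFI1 and GFI1B. These counts were 0 and 2 at a score of at least 50, and 0 and 5 with the main transcript of each gene. RCOR3 with 9 regions and HDAC2 with 10 held the most. The highest new scores were 127 in an RCOR3 exon (chr1:211486723-211487107), 74 near HDAC2 (chr6:114252728-114253487) and 68 in an RCOR3 intron (chr1:211454035-211454315).

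**Figure D5:**
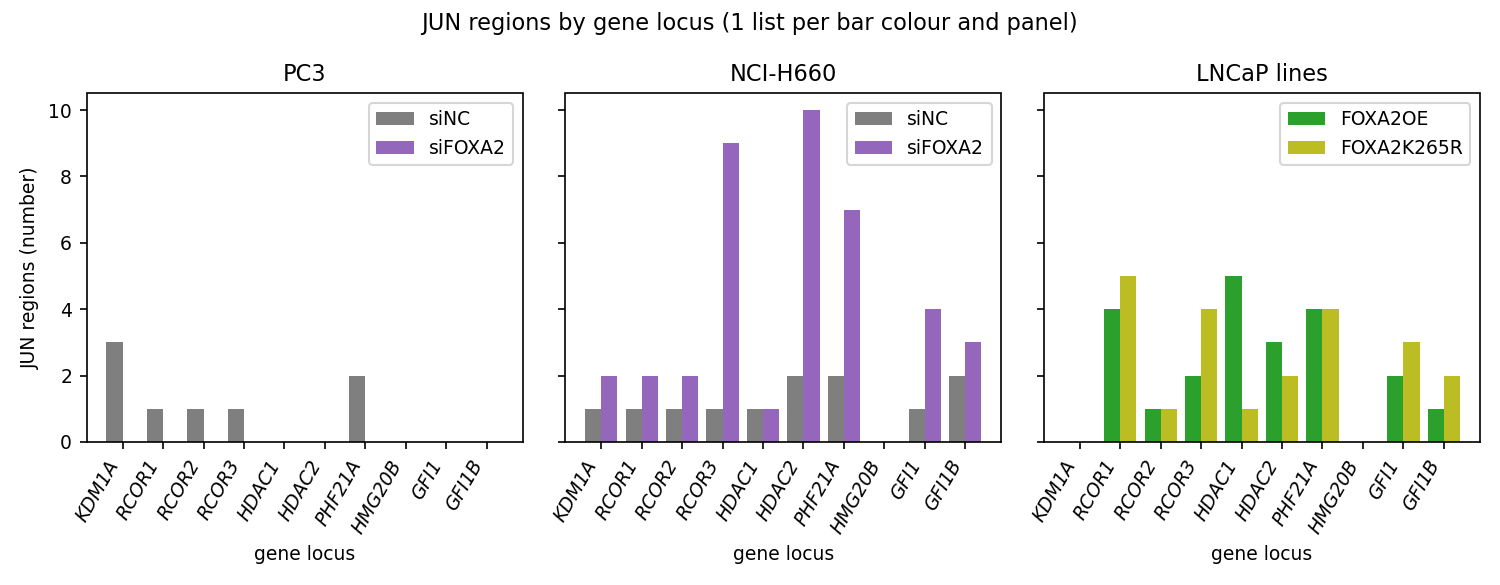
Numbers of JUN regions (bars) at each member locus in 6 JUN lists, by line and condition, 1 list per colour and panel. PC3 goes from 8 with siNC to 0 with siFOXA2, NCI-H660 from 12 to 40, and the FOXA2OE and FOXA2K265R lists of LNCaP hold 22 each.

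AP-1 matches were rarer in NCI-H660. None of the 12 siNC regions held 1 within 100 bp of the centre, against 13.8% of that list, and 1 of the 40 siFOXA2 regions did, against 4.98%. The GFI1B and TSC1 start, the promoter with JUN in NCI-H660 and FOXA2 in the unlabelled PC3 lists, held a forkhead match on the - strand, shown here as the + strand reads.
GFI1B and TSC1 start, JUN with siNC, chr9:135820367-135820387: gagaggcGTAAACAagctggc

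The MAPK8IP1 intron in the PHF21A window was 1 place that recurred across all 3 lines. The stretch that all 6 of its JUN calls covered is shown because it holds neither an AP-1 nor a forkhead match.
PHF21A locus, JUN in 6 lists, chr11:45921240-45921488: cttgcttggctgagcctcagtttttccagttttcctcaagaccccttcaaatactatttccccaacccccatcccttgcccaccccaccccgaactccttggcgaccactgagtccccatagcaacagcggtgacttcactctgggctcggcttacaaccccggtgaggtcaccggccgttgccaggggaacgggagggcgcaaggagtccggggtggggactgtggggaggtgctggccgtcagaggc

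There JUN scored 202 in PC3 siNC, 2207 and 1622 in NCI-H660 siNC and siFOXA2, 408 in FOXA2OE LNCaP and 1422 in FOXA2K265R LNCaP, and was called without a score in LNCaP siNC. It was exceeded by 0.299% of the NCI-H660 siNC list, 0.0959% of siFOXA2, 0.971% of FOXA2OE and 0.259% of FOXA2K265R, but by 35.8% in PC3. It was missing with siFOXA2 in PC3 and siFOXA1 in LNCaP. Of 76 JUN places in all, 63 were in 1 line, 10 in 2 and 3 in all 3 lines, the others being the MARK2 intron in the RCOR2 window (61 in PC3, 55 and 38 in NCI-H660, 33 in FOXA2K265R) and the RCOR3 promoter (60 in PC3, 39 in NCI-H660 siFOXA2, 54 in FOXA2OE, 66 in FOXA2K265R). Of the 8 PC3 regions, 2 were in the NCI-H660 siNC list (25%; 7.15 to 59.1), where 87.2% of the PC3 list was not. HMG20B had no JUN region in any list.

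In LNCaP, siNC JUN was called at 1 member place, that PHF21A one (13.4% of genes), and siFOXA1 JUN at 0 (8.64%). The whole siNC list lost 50.4% of its regions with siFOXA1. With ectopic FOXA2, JUN had 22 regions at 8 members (79.5% of genes), and with FOXA2K265R also 22 at 8 (85.0%). KDM1A and HMG20B had none in either. Of the FOXA2OE regions 5 of 22 were in the FOXA2K265R list (22.7%; 10.1 to 43.4), where the whole FOXA2OE list lost 63.0%. Of the 22 FOXA2K265R regions 17 were new, where 81.3% of that list was new.

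After the PHF21A place, the strongest FOXA2OE regions were 111 near GFI1 (chr1:92907475-92907703, 8.22% higher) and 92 in an HDAC1 intron (chr1:32763155-32763400, 14.5% higher), both absent from FOXA2K265R. The strongest new FOXA2K265R regions were 79 in the GFI1 window (chr1:92995775-92996111, 16.1% higher), 74 near RCOR3 (chr1:211393280-211393497) and 73 at the PHF21A promoter (chr11:46142857-46143133). JUN lay at the promoters of 2 members with FOXA2OE (26.7% of all genes), RCOR1 and RCOR3, and 4 with FOXA2K265R (40.7%), RCOR3, HDAC2, PHF21A and GFI1B.

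These lists had few AP-1 matches, 2.38% of all FOXA2OE and 4.08% of all FOXA2K265R regions against 25.4% of the LNCaP siNC list, and none in the 22 member regions of either within 100 bp of the centre. Their bases were rich in G and C, with list medians of 63.4% and 57.8% against 42.9% for siNC. At the members they overlapped NCI-H660 siFOXA2 JUN regions at 8 of 22 (36.4%; list 24.9%) and 9 of 22 (40.9%; list 29.3%), and PC3 ATAC-seq at 6 (27.3%; list 29.6%) and 9 (40.9%; list 30.3%). The part of base composition in the difference from siNC was not tested.

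FOSL1 added 1 region. PC3 siNC FOSL1 had 0 at the members (17.4% of genes) and siFOXA2 FOSL1 had 1 (8.50%), in a KDM1A intron (chr1:23364767-23364959, score 24, 33.1% higher) with neither motif. No fold can be drawn from 0 against 1, and at this list length a difference was not detectable.

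The other pathway genes held more regions of the labelled FOXA2 lists, in counts not set per length of genome. These genes also held more ATAC-seq regions than the members, 270 against 171 in PC3 and 156 against 85 in NCI-H660. They were 11 known partners, recruiters or paralogues of the complex, among them the paralogue KDM1B (LSD2), the corepressors ZNF217 and CTBP2, the repressor INSM1, which recruits LSD1, and ZMYM3, found in its complexes. All 11 had accessible promoters in both lines. In vehicle PC3, FOXA2 was called at 13 regions at 8 of them (54.1% of all genes). ORY-1001 left 7 and C12 left 7 (each 53.8%; 29.1 to 76.8), where the whole list kept 36.8% and 29.6%. At the members each inhibitor left 1 of 7. The intervals of the members and of the other pathway genes overlap, and the difference was not tested. The strongest vehicle scores were 2060 at ZNF217 and 927 at INSM1, both kept, and the genes with kept regions were CTBP2, INSM1, KDM1B, ZMYM3 and ZNF217. In NCI-H660, 4 of 8 were kept under ORY-1001, where the whole list kept 68.4%. PC3 JUN went from 17 to 1, at ZNF217, and NCI-H660 JUN from 17 to 39 with 7 kept, the same directions as at the members and over the whole lists.

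Of all protein-coding genes, those whose counts over the 22 lists were most like those of KDM1A were SLC30A6 (Spearman rho 0.950), LUZP1 (0.944) and SLC1A4 (0.942). LUZP1 lies 341 bp from KDM1A and shares its window, and the lists share cell lines and controls, so this is a description of counts.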

How the data were processed

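Per the submitters' processing notes, the tools were FastQC 0.11.9, BWA 0.7.17-r1188, SAMtools 1.9 and MACS2 2.1.4, on hg19, and the authors deposited 1 list of called regions per sample. The control library, the calling threshold and any pooling are not given in the sources used here. The deposited score is a whole number per region, taken as the −log10 q-value times 10 because the lowest, 13, lies near a q-value of 0.05, which is an inference.

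Genes and transcript starts came from GENCODE 44 lifted to hg19. Regions were joined with the gene windows in Python 3.11.15 (numpy 2.4.6, scipy 1.17.1, pysam 0.24.0, samtools 1.23.1, matplotlib 3.10.9), and the code was tested on simulated regions. A control region counted as kept if any region of the second list shared 1 bp or more with it, and as lost if none did. Motifs were read from the reference within 100 bp of the region centre. With 1 list per arm no test was run. The members, lists of other genes and measures were chosen with earlier results of these data known. Named regions were all FOXA2 regions at member promoters and, per contrast, up to 3 kept, lost and new regions by score. Regions beyond that rule (the full PC3 FOXA2 and JUN sets, and sequences shown beside them) were chosen after their values were seen. The DKO model of the design was not analysed here, and some items are not reported here.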

Additional observations from a re-analysis of the deposited data

Results flagged for a closer look

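Numbers of called JUN regions at the 10 loci moved in opposite directions when FOXA2 was knocked down in PC3 and NCI-H660. Counts of calls do not measure binding, and the paper reports decreased JUN binding in both lines. The number with siFOXA2 minus that with siNC was -8 in PC3 (8 to 0) and 28 in NCI-H660 (12 to 40). The whole lists moved the same ways, from 23890 to 4081 and from 18401 to 59452 regions. With 1 list per arm, the difference between the lines was not tested.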

How the results depend on the processing

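Of 66 kept or shared shares recomputed under the alternatives, 60 moved by less than their counting interval. With the first unlabelled list as control, the share kept was 2.33% under ORY-1001 and 2.33% under C12, against 14.3% for each. With equal numbers of top regions, C12 kept 1 of 1 (100%), and the unlabelled lists held 4 of the 7 vehicle regions (57.1%, against 100%). At a score of at least 50, NCI-H660 kept 0 of 1 under ORY-1001 (0%, against 33.3%). With 25 kb windows, 0 of 5 PC3 JUN regions were called in NCI-H660 (0%, against 25%). Distal regions numbered 708 with 100 kb windows, against 419. The causes were not tested. Leaving out either unlabelled list gave 100% and 100% of vehicle regions found. Of 154 numbers in single lists, 36 moved. Searching whole regions for motifs, chosen after seeing the data, gave an AP-1 match in 4 of 8 PC3 JUN regions. PC3 and LNCaP JUN with equal numbers, LNCaP JUN with 25 kb windows and PC3 FOSL1 could not be computed, having no control region or no score. No paired analysis was possible because each arm had 1 list and no result came from a test. Depth is unknown, so a missing call does not show absence of binding.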
